A study of Homo sapiens with 8 samples.

Results

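The genes described here are 46 genes of mitosis and of the G2/M transition, measured in U373 cells, a human astrocytoma line, after 12 h of hormone treatment. They were chosen by name with earlier results of these data known, so counts of them set beside all genes are a description. Each was read from the one-symbol probe set of the array with the highest mean. All 46 had such a probe set, so they are 46 of the 18417 genes measured. RNA from whole cultures was hybridised to Affymetrix Human Gene 1.0 ST arrays, with 2 arrays in each of 4 groups and 8 arrays in all. The combination group received 10 nM progesterone together with 1 µM RU-486, the RU-486 group 1 µM RU-486, the progesterone group 10 nM progesterone, and the vehicle group neither steroid. RU-486 (mifepristone) is a synthetic steroid that blocks the progesterone and glucocorticoid receptors. All groups shared a preceding 24 h in medium with 5% hormone-free serum, which the vehicle cells received too, and the comparisons ask what each steroid, and the pair, changed against that state. A confluence of 70% is recorded for all groups. Titles and protocol name RU-486, while the descriptions of the same arrays carry another compound number, which is taken to mean RU-486. The cell line field carries a shortened name, which is taken to mean U373. The labels call the replicates biological and name no separate cultures or days, and each p-value below measures the spread between these samples alone, which may be technical.

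Cells that pass from G2 into mitosis switch on CDK1 with cyclins A and B, condense their chromosomes, attach them to a spindle and, once the spindle assembly checkpoint is satisfied, destroy cyclin B and securin through the anaphase-promoting complex and divide. Most of the genes involved are transcribed late in the cell cycle, under the DREAM and MuvB complexes with B-MYB and FOXM1, acting through CCAAT boxes bound by NF-Y and through the cell cycle genes homology region (CHR). In gliomas, as in other tumours, high levels of these genes mark proliferating cells, and MKI67 encodes the Ki-67 antigen that is used to count them.

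On the deposited log2 scale, array medians lay between 6.93 and 7.02. Against 341 olfactory receptor genes, which serve as a gauge of background (median 4.64, 95th percentile 6.22), 46 of 46 genes had a mean above that percentile. CENPE was the dimmest, with a mean of 6.61 and 6.14 on progesterone array 1, and the other 45 exceeded the brightest olfactory receptor by their mean. Of the astrocyte and glioma markers, 7 of 9 lay above 6.22, among them GFAP at 7.54, S100B at 9.59, SOX2 at 12.0 and VIM at 13.4, while AQP4 at 4.19 and SLC1A2 at 5.21 did not. Of the microglia and leukocyte markers 0 of 6 did, and the oligodendrocyte markers gave 0 of 4. The endothelial list gave 1 of 5 (CDH5, 8.57), the epithelial list 1 of 5 (CLDN4, 6.91) and the neuronal list 4 of 5, none of those above 7.18. The astrocyte list averaged 9.15 to 9.21 in combination, 9.20 to 9.23 in RU-486, 9.18 to 9.23 in progesterone and 9.16 to 9.17 in vehicle cells. In bulk RNA, fewer cells in G2 or mitosis and less of these RNAs per cell cannot be told apart.

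The 46 genes did not move as a block. They fell into 2 classes by their range over the 8 arrays, and a split at 0.75 log2 was set in the gap between them after the values were seen. The classes are thus a description, carry no test, and support none of the comparisons made on the same arrays. That gap held among these 46 genes only. Of the further G2/M genes described below, CENPI ranged over 0.71, SPC25 over 0.82 and SKA3 over 0.91, all within it. In 18 wide-ranging genes the range ran from 0.94 in KIF23 to 2.18 in KIF18A, with a median of 1.56. In 28 narrow-ranging genes it ran from 0.12 in AURKA to 0.59 in BUB1, with a median of 0.24. For scale, the median range over all 18417 genes was 0.38, and 9.08% of them exceeded 0.75. KIF18A thus differed 4.52-fold between its highest and lowest arrays, and AURKA 1.09-fold. By role, none of 11 genes of mitotic entry was wide-ranging, against 1 of 7 in the checkpoint and exit group, 4 of 7 kinetochore and passenger genes, 6 of 9 spindle genes, 4 of 8 cytokinesis genes and 3 of 4 chromosome and proliferation genes, a difference between roles that was not tested. The wide-ranging genes had means from 6.61 to 11.5 and the narrow-ranging ones from 8.83 to 12.2. The ranges of level thus overlapped, but some wide-ranging genes, KIF18A, ASPM and CENPE among them, lay below every narrow-ranging one. Whether range goes with level was not tested.

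The wide-ranging genes shared the 2 arrays at the top and differed in the order below them. Progesterone array 2 was the highest and vehicle array 2 the second highest in 18 of 18. Combination array 1 was the lowest in 14, combination array 2 in 3 and progesterone array 1 in 1. Measured as the median deviation of the 18 genes from each gene's own mean, combination arrays 1 and 2 stood at −0.63 and −0.53, RU-486 arrays at −0.20 and 0.02, progesterone arrays at −0.15 and 0.85, and vehicle arrays at 0.07 and 0.57. The progesterone pair therefore lay farther apart than any other pair, on both sides of the vehicle arrays. The 28 narrow-ranging genes had median deviations between −0.05 and 0.05 on all 8 arrays. 

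**Figure D1:**
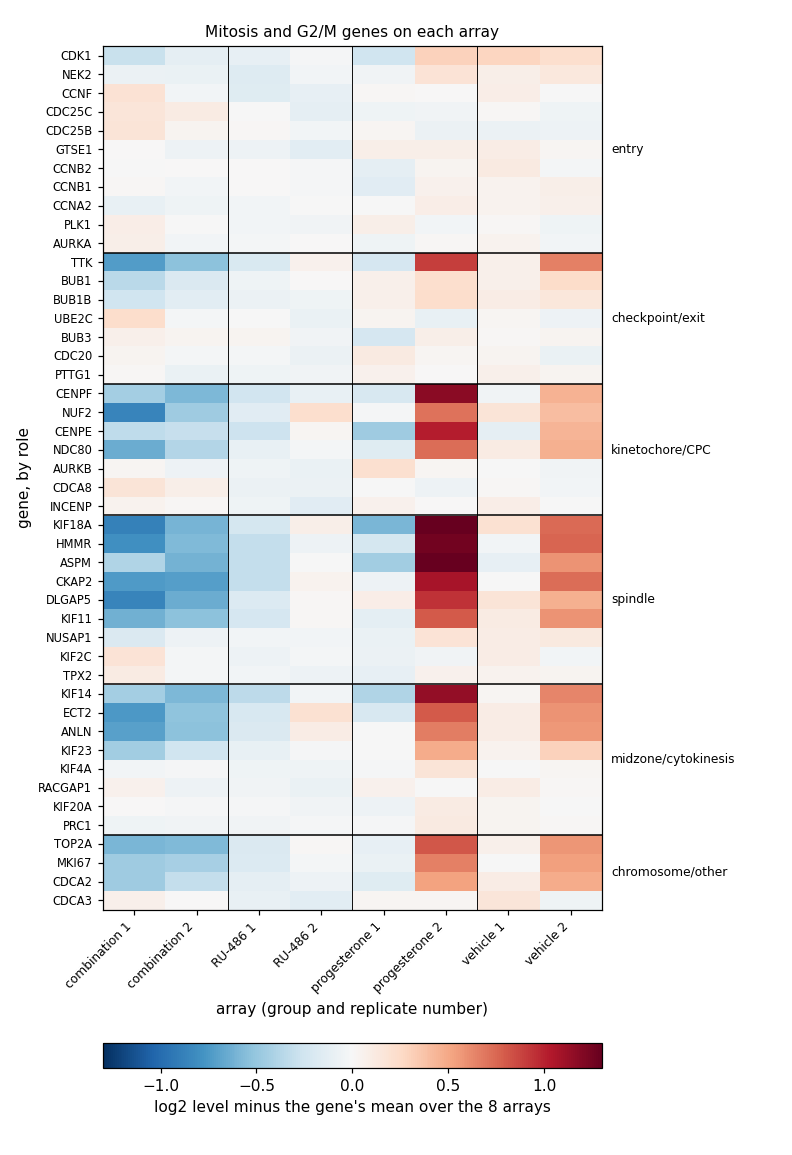
Heat map of the 46 genes (rows, grouped by role) on the 8 arrays (columns, from combination to vehicle), coloured by the log2 difference from each gene's own mean over the arrays. The wide-ranging genes are highest on progesterone array 2 and next on vehicle array 2 and lowest on the combination arrays (on progesterone array 1 for CENPE), while rows such as AURKA, PLK1 and PRC1 stay close to their mean on every array.

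Promoters were read for the genes whose level turned most on the array and held both late cell cycle motifs, to show which letters they share with genes that hardly moved. Of the 46 genes, 39 matched a promoter window in RefSeq (GRCh38.p14), reaching from 250 bases before the gene's start to 50 after it. The CCAAT box was searched as CCAAT on either strand. The CHR was searched as TTTGAA on either strand or as TTCGAA, which reads alike on both. The 4 widest-ranging genes with both motifs were KIF18A (chr11:28108107-28108406, minus strand), HMMR (chr5:163460382-163460681, plus strand), ASPM (chr1:197146620-197146919, minus strand) and DLGAP5 (chr14:55191536-55191835, minus strand). PRC1 (chr15:90994486-90994785, minus strand) and PLK1 (chr16:23678639-23678938, plus strand) were added after the values were seen, as the narrowest-ranging genes with both. Each is given 5′ to 3′ on the gene's strand, and capitals mark every match to either motif, including matches that overlap or adjoin.
KIF18A: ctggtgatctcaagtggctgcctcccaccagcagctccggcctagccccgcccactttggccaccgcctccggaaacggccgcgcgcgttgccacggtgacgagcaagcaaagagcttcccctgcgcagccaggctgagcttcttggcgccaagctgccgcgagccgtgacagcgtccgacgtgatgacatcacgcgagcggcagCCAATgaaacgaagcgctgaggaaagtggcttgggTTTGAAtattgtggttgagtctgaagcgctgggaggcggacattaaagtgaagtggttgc
HMMR: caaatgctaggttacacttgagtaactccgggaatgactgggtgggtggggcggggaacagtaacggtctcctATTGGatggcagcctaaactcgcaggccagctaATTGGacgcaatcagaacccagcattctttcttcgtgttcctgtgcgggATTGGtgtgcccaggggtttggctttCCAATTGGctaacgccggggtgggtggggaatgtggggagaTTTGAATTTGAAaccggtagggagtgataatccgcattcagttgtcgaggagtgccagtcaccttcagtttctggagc
ASPM: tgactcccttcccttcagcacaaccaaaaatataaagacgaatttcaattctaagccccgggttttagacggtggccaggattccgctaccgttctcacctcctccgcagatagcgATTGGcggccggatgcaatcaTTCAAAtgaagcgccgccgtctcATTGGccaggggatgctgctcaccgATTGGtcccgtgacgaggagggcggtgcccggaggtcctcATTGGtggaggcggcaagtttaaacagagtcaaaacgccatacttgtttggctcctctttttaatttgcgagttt
DLGAP5: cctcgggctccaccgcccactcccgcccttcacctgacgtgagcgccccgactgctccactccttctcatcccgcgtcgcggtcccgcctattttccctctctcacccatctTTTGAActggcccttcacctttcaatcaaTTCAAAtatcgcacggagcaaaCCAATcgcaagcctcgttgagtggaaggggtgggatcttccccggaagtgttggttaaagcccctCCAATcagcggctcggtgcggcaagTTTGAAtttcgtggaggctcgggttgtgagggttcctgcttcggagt
PRC1: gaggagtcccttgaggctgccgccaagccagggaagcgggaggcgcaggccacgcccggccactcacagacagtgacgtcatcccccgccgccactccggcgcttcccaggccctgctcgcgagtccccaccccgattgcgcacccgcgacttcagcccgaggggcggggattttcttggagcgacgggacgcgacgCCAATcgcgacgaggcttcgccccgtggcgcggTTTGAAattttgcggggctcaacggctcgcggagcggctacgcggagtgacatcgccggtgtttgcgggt
PLK1: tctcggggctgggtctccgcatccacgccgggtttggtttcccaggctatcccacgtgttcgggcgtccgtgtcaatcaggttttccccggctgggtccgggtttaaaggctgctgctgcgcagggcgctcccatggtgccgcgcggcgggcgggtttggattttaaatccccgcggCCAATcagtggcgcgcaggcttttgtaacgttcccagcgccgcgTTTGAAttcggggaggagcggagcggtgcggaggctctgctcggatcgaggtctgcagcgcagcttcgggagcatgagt
KIF18A carried a CCAAT match 45 bases and a CHR match 10 bases before its start, and PRC1 had the same pair at 53 and 20 bases. PLK1 had them at 73 and 29 bases. HMMR held 5 CCAAT matches, of which those at 69 and 66 bases overlap on opposite strands, and 2 adjoining TTTGAA matches at 28 and 22 bases. In ASPM the CHR match, at 113 bases, lay before 3 of its 4 CCAAT matches, and DLGAP5 had CHR matches at 138 and 109 bases and 1 just after its start. The order and spacing of the letters thus differed among the wide-ranging genes shown.

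Among the 39 windows, 30 held a CCAAT match (76.9%, against 35.7% of all 27305 promoters in the table), 18 held it at 2 or more places (46.2% against 11.3%), 28 held a CHR match (71.8% against 16.6%) and 24 held both (61.5% against 6.58%). In a shorter window from 100 bases before the start, 20 of 39 held both (51.3%, against 1.86%). Divided by class, CCAAT was matched in 11 of 16 wide-ranging genes (68.8%) and 19 of 23 narrow-ranging genes (82.6%). The CHR letters were matched in 14 of 16 (87.5%) and 14 of 23 (60.9%), and both in 11 of 16 (68.8%) and 13 of 23 (56.5%). Both classes thus hold these letters more often than the table as a whole does, a property these genes are known for, and no test of the difference between the classes was made.

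**Figure D2:**
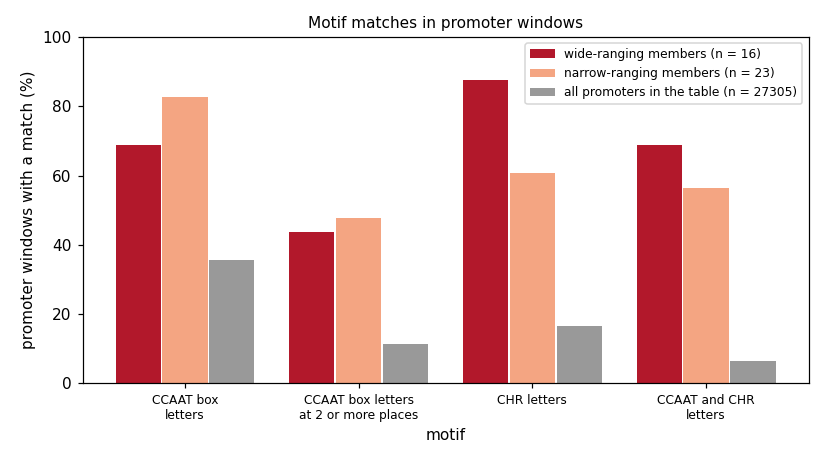
Share of promoter windows (percent, bars from 0) with a match to each motif, for the 16 wide-ranging and 23 narrow-ranging genes with a window and for all 27305 windows. Both gene classes stand above the table for each motif, and their order differs between CCAAT (68.8% and 82.6%) and CHR (87.5% and 60.9%).

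All 11 genes of mitotic entry were narrow-ranging, CDK1 the widest among them. They comprise CDK1, the kinase that drives entry, its cyclins CCNA2, CCNB1 and CCNB2, cyclin F (CCNF, part of a ubiquitin ligase), the phosphatases CDC25B and CDC25C that activate CDK1, the kinases PLK1, AURKA and NEK2, and GTSE1, a microtubule-associated regulator of p53. CDK1, with a range of 0.58, read 9.80 and 9.97 in combination, 9.98 and 10.07 in RU-486, 9.83 and 10.38 in progesterone and 10.36 and 10.30 in vehicle cells (log2, replicate 1 and then replicate 2, as for every gene here). Both combination and both RU-486 arrays lay below both vehicle arrays for CDK1, and the progesterone pair spanned them. NEK2, which separates the centrosomes, read 9.49 and 9.48 in combination, 9.40 and 9.53 in RU-486, 9.52 and 9.75 in progesterone and 9.64 and 9.71 in vehicle cells. CCNF read 9.01 and 8.79 in combination, 8.67 and 8.72 in RU-486, 8.84 and 8.83 in progesterone and 8.92 and 8.82 in vehicle cells, with combination array 1 the highest. The other 8 had ranges from 0.12 (AURKA) to 0.28 (CDC25C), and CCNB1 averaged 10.52 ± 0.04 in combination, 10.52 ± 0.01 in RU-486, 10.48 ± 0.15 in progesterone and 10.59 ± 0.02 in vehicle cells (SD, n = 2 each).

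In the checkpoint and exit group, 1 gene stood out from the other 6. TTK (MPS1), the kinase that starts checkpoint signalling at unattached kinetochores, read 8.59 and 8.79 in combination, 9.12 and 9.37 in RU-486, 9.10 and 10.22 in progesterone and 9.39 and 9.98 in vehicle cells. The checkpoint kinase BUB1 read 10.34 and 10.51 in combination, 10.64 and 10.71 in RU-486, 10.77 and 10.92 in progesterone and 10.77 and 10.93 in vehicle cells. Its relative BUB1B (BUBR1), part of the complex that holds back the anaphase-promoting complex, read 10.20 and 10.33 in combination, 10.39 and 10.40 in RU-486, 10.53 and 10.69 in progesterone and 10.56 and 10.61 in vehicle cells. For BUB1 and BUB1B the 4 arrays with RU-486 lay below the 4 without it, which was not so for TTK, where progesterone array 1 lay below both RU-486 arrays. BUB3, their partner at kinetochores, CDC20, the activator of the anaphase-promoting complex, UBE2C, the enzyme that supplies it with ubiquitin, and PTTG1 (securin) had ranges of 0.29, 0.20, 0.32 and 0.15.

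In the kinetochore and passenger group, the wide-ranging genes were the kinetochore genes, a division that was not tested. Kinetochore genes outside the 46 lay on both sides of the split at 0.75. KNL1 ranged over 1.66 and SPC25 over 0.82, while SPC24 ranged over 0.36, ZWINT over 0.35 and SKA1 over 0.44. NDC80 and NUF2 are subunits of the complex that binds microtubules, CENPE is a kinetochore motor, CENPF a large kinetochore and matrix protein, and all 4 were wide-ranging. CENPF read 9.03 and 8.89 in combination, 9.22 and 9.37 in RU-486, 9.26 and 10.64 in progesterone and 9.42 and 9.92 in vehicle cells. NUF2 read 8.39 and 8.78 in combination, 9.09 and 9.46 in RU-486, 9.24 and 9.95 in progesterone and 9.42 and 9.65 in vehicle cells. CENPE, near background, read 6.28 and 6.31 in combination, 6.34 and 6.64 in RU-486, 6.14 and 7.63 in progesterone and 6.49 and 7.05 in vehicle cells. The 2 progesterone arrays of CENPE were thus its lowest and its highest. AURKB, the passenger kinase, INCENP, its scaffold, and CDCA8 (borealin) had ranges of 0.30, 0.23 and 0.25, and CDCA8 read 10.64 and 10.55 in combination, 10.39 and 10.39 in RU-486, 10.47 and 10.41 in progesterone and 10.49 and 10.44 in vehicle cells.

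Spindle genes held the widest ranges of all. KIF18A, a kinesin that dampens chromosome movement at the plus ends of spindle microtubules, read 7.05 and 7.32 in combination, 7.70 and 7.998 in RU-486, 7.32 and 9.22 in progesterone and 8.12 and 8.66 in vehicle cells. HMMR, a hyaluronan receptor that also binds spindle microtubules, read 8.12 and 8.35 in combination, 8.61 and 8.85 in RU-486, 8.69 and 10.18 in progesterone and 8.89 and 9.68 in vehicle cells. ASPM, a spindle pole protein mutated in microcephaly, read 7.70 and 7.48 in combination, 7.77 and 8.08 in RU-486, 7.63 and 9.38 in progesterone and 7.98 and 8.68 in vehicle cells. In each of the 3 the combination arrays lay below the vehicle arrays, while the gap within the progesterone pair exceeded the gap between those groups' means. DLGAP5 (HURP), which stabilises the fibres that reach the kinetochores, read 8.55 and 8.77 in combination, 9.23 and 9.42 in RU-486, 9.49 and 10.35 in progesterone and 9.58 and 9.87 in vehicle cells. It was 1 of 7 genes, with CCNA2, GTSE1, BUB1, BUB1B, PRC1 and KIF23, in which all 4 arrays with RU-486 lay below all 4 without it (1.09% of all genes). KIF11 (Eg5), which separates the spindle poles, ranged over 1.42 and CKAP2, a spindle protein, over 1.81. KIF2C, a microtubule depolymerase, TPX2, the activator of Aurora A, and NUSAP1, a microtubule bundler, ranged over 0.25, 0.21 and 0.37.

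**Figure D3:**
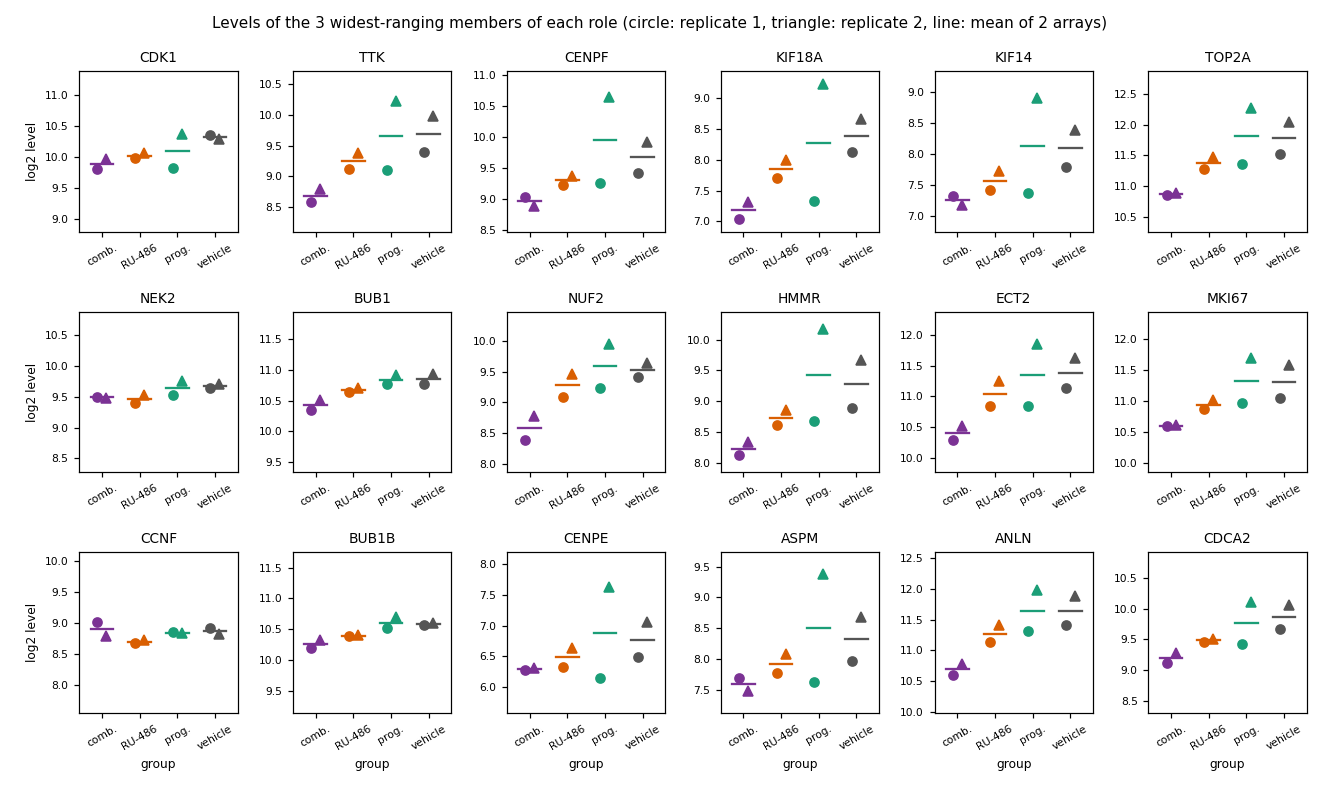
Log2 level (vertical axis) on each array for the 3 widest-ranging genes of each role, with combination at the left and vehicle at the right. Circles are replicate 1, triangles replicate 2 and lines the mean of the pair, and in the wide-ranging genes the 2 progesterone points enclose the vehicle points, and the combination points lie below the vehicle points.

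The cytokinesis genes split evenly. ANLN (anillin), the scaffold of the contractile ring, read 10.60 and 10.78 in combination, 11.13 and 11.41 in RU-486, 11.31 and 11.98 in progesterone and 11.41 and 11.88 in vehicle cells. ECT2, the exchange factor that activates RhoA at the equator, read 10.30 and 10.53 in combination, 10.84 and 11.25 in RU-486, 10.84 and 11.85 in progesterone and 11.14 and 11.63 in vehicle cells. KIF14, a kinesin of the midbody, read 7.32 and 7.18 in combination, 7.42 and 7.73 in RU-486, 7.37 and 8.90 in progesterone and 7.79 and 8.39 in vehicle cells. The combination arrays were the lowest pair in all 3. KIF23, the motor subunit of centralspindlin, ranged over 0.94, while its partner RACGAP1 in the same complex ranged over 0.18. PRC1, which bundles the midzone microtubules, and the motors KIF4A and KIF20A that work there ranged over 0.17, 0.23 and 0.17.

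Among the chromosome and proliferation genes, TOP2A, the topoisomerase that untangles sister chromatids, read 10.86 and 10.89 in combination, 11.27 and 11.48 in RU-486, 11.36 and 12.26 in progesterone and 11.52 and 12.03 in vehicle cells. MKI67 read 10.59 and 10.61 in combination, 10.86 and 11.02 in RU-486, 10.96 and 11.70 in progesterone and 11.04 and 11.58 in vehicle cells. CDCA2 (Repo-Man), which brings a phosphatase to anaphase chromosomes, read 9.12 and 9.27 in combination, 9.46 and 9.51 in RU-486, 9.42 and 10.10 in progesterone and 9.68 and 10.06 in vehicle cells. All 3 had both combination arrays below the other 6, and in TOP2A and MKI67 these 2 arrays lay closer together than the pair of any other group. CDCA3, a trigger of entry that targets WEE1, ranged over 0.29.

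Replicate differences are given by class, but the classes were set by the range over these same arrays. A larger gap between replicates in the wide-ranging genes is thus partly built in and is no separate finding. Replicate 2 minus replicate 1 had a median over the 18 wide-ranging genes of 0.17 in combination, 0.25 in RU-486, 0.96 in progesterone and 0.50 in vehicle cells. Over the 28 narrow-ranging genes it was −0.06, −0.02, 0.05 and −0.05 in the same order of groups, and over all 18417 genes −0.01, 0.02, −0.08 and −0.01. Replicate 2 was the higher one in 15 of 18 wide-ranging genes in combination cells and in 18 of 18 in each of the other groups. Of all 46 genes it was the higher one in 23 in combination, 30 in RU-486, 36 in progesterone and 27 in vehicle cells. The shares over all genes were 46.6%, 56.0%, 37.0% and 46.4% in the same order. In the progesterone pair, 18 of 46 genes differed by more than 0.5, all with replicate 2 higher, against 11.8% of all genes in either direction and 7.03% with replicate 2 higher. In the vehicle pair 10 of 46 did, against 2.44% of all genes, and in the other 2 groups none did (0.994% of all genes in combination, 0.690% in RU-486). Among the 46 genes KIF18A held the largest such difference, 1.90 in progesterone cells, where the largest over all genes was 2.35. Whether a replicate number marks a shared day or culture was not tested, and RNA quality and scan batches were not used here.

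**Figure D4:**
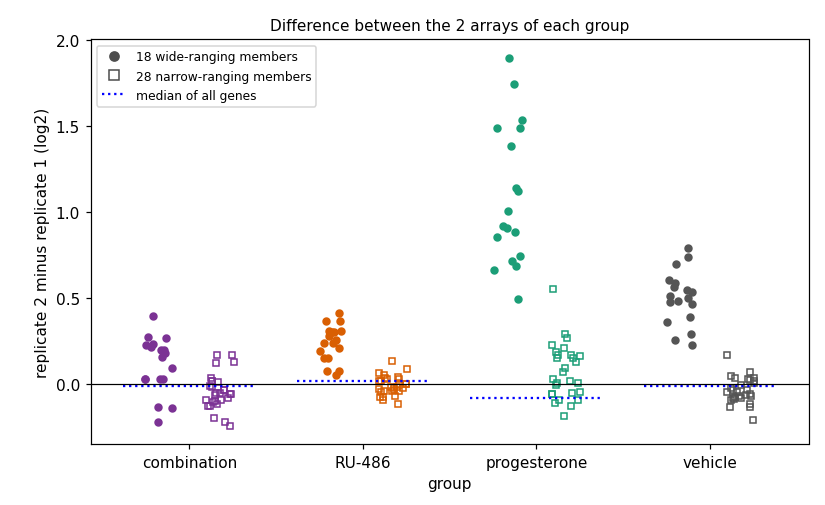
Replicate 2 minus replicate 1 (log2) for each of the 46 genes in the 4 groups, with wide-ranging genes as filled circles, narrow-ranging ones as open squares and a dotted line at the median of all genes. The wide-ranging genes lie above 0 in RU-486, progesterone and vehicle cells and reach 1.90 in the progesterone pair, and the narrow-ranging genes reach 0.55 there (CDK1), above the lowest wide-ranging gene (KIF23, 0.49).

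Against that spread, the combination was compared with vehicle first. The combination arrays had the lower mean in 35 of 46 genes (32.5% of all genes), with a median difference of −0.16, against 0.07 over all genes. In limma, fitted on all 18417 genes with Benjamini-Hochberg adjustment, 0 of 46 genes passed an adjusted p of 0.05 (0.0% of all genes). The smallest adjusted p was 0.374. Unadjusted p was under 0.05 and the mean lower in 15 of 46 (6.29% of all genes) and the mean higher in 0 (6.92% of all genes). DLGAP5 averaged 8.66 ± 0.15 in combination and 9.72 ± 0.20 in vehicle cells (SD, n = 2 each), a difference of −1.06 ± 0.26 (SE), or 2.09-fold lower. BUB1 differed by −0.42 ± 0.10, ANLN by −0.96 ± 0.24, NUF2 by −0.95 ± 0.25 and BUB1B by −0.32 ± 0.09. KIF11, TOP2A, KIF23, CDCA2, ECT2, NDC80, CKAP2, TTK, MKI67 and CDK1 made up the remainder of the 15. The combination arrays lay wholly below the vehicle arrays in 29 of 46 (18.8% of all genes) and wholly above in 3 (42.7% of all genes), namely CDC25B, CDC25C and CDCA8. KIF18A had the lowest difference, −1.21 ± 0.54 (unadjusted p = 0.0592 in limma). Its SE draws on the replicates of all 4 groups, also those not compared here. For KIF18A these lay 0.27 apart in combination, 0.55 in vehicle, 0.30 in RU-486 and 1.90 in progesterone cells. Leaving out 1 array at a time left 0 genes called, with medians between −0.18 and −0.14.

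RU-486 alone gave lower means than vehicle in 45 of 46 genes (44.7% of all genes), every one but CDC25B. Most of these differences were small: their median was −0.17, against 0.01 over all genes, and reached −0.55 at the lowest. None of the 46 passed in limma (0.0% of all genes), the smallest adjusted p was 1.00, and 0 had an unadjusted p under 0.05 (3.1% of all genes, 0.95% with a lower and 2.15% with a higher mean). The RU-486 arrays lay wholly below vehicle in 32 of 46 (15.7% of all genes) and wholly above in 1 (24.0% of all genes). GTSE1 (−0.17 ± 0.08, SE), BUB1B (−0.19 ± 0.09) and NEK2 (−0.20 ± 0.10) had the smallest p, and KIF18A differed by −0.54 ± 0.54. After quantile normalization or centring of the arrays, 44 of 46 means were lower.

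Averaged over the absence and presence of progesterone, the 4 arrays with RU-486 were set against the 4 without it. The mean was lower with RU-486 in 38 of 46 genes (37.5% of all genes), with a median of −0.15 against 0.03 over all genes. No gene of the 46 passed in limma, although 6 of all genes did (0.0326%), and the smallest adjusted p was 0.333. Unadjusted p was under 0.05 with a lower mean in 18 of 46 (4.49% of all genes), 14 of them wide-ranging and the other 4 BUB1, BUB1B, GTSE1 and NEK2, and in 0 with a higher mean (6.53% of all genes). DLGAP5 differed by −0.83 ± 0.18 (SE; 1.77-fold lower), BUB1B by −0.27 ± 0.06, BUB1 by −0.30 ± 0.07 and ANLN by −0.67 ± 0.17. The arrays with RU-486 lay wholly below those without it in 7 of 46 (1.09% of all genes). This comparison turned on progesterone array 1. Without it, 20 of 46 genes passed in limma, all lower with RU-486: the 18 wide-ranging ones, BUB1B and CDK1. KIF18A then differed by −1.29 ± 0.16, HMMR by −1.25 ± 0.19 and MKI67 by −0.74 ± 0.13 (adjusted p = 0.0408), but 998 genes of all passed as well. The remaining progesterone array is then assumed to vary like the arrays of the other groups. Without any 1 of the other 7 arrays, 0 of 46 passed.

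**Figure D5:**
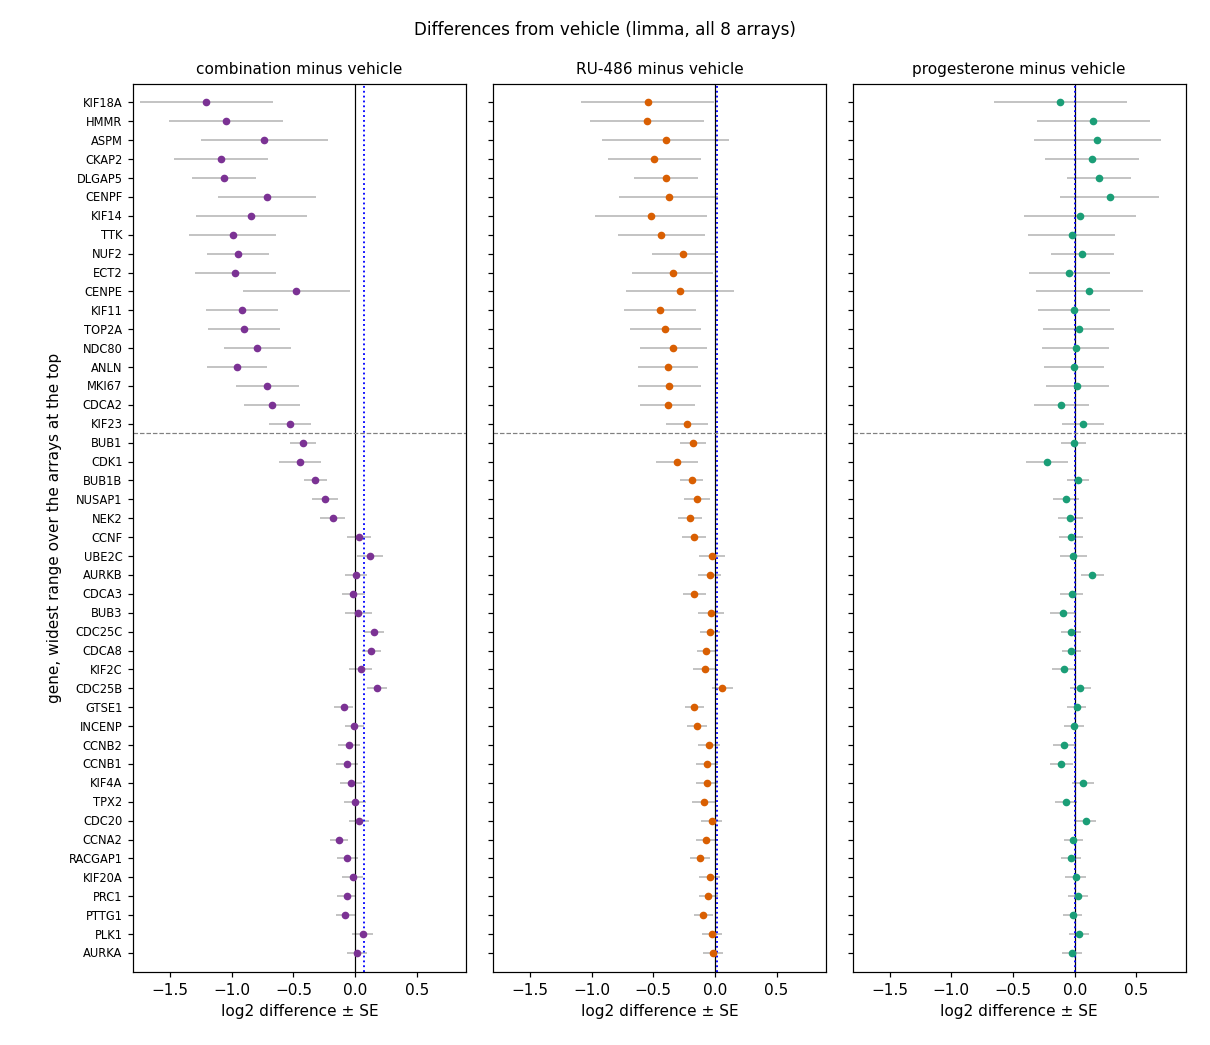
Difference from vehicle (log2, group means) for each of the 46 genes in combination, RU-486 and progesterone cells, with its standard error from limma; the dotted line is the median of all genes, and the dashed line separates the wide-ranging genes above from the narrow-ranging ones. Differences are below 0 for every wide-ranging gene in combination and RU-486 cells. In RU-486 cells this also holds for every narrow-ranging gene but CDC25B. Differences lie on both sides of 0 in progesterone cells, and the vehicle arrays are shared by the 3 comparisons.

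Under progesterone alone the 46 genes shared no direction. Means were lower than vehicle in 25 of 46 (48.8% of all genes) and higher in 21, with a median of −0.01 against 0.00 over all genes. In limma 0 of 46 passed (0.0% of all genes), 0 had an unadjusted p under 0.05 (6.13% of all genes, 2.45% lower and 3.68% higher), and the smallest adjusted p was 0.754. AURKB was wholly above vehicle at 0.14 ± 0.09 (SE; 16.3% of all genes were wholly above) and KIF2C wholly below at −0.09 ± 0.10 (15.8% were wholly below). CDK1 differed by −0.23 ± 0.17. Here too the progesterone arrays decide the value: without replicate 2 the median over the 46 genes was −0.16 and CDK1 passed, at −0.50, among 1228 genes of all, and without replicate 1 the median was 0.07. The average over the absence and presence of RU-486 had a lower mean with progesterone in 28 of 46 genes (38.8% of all genes), a median of −0.04 against 0.03, 0 genes passing (0.0% of all genes) and a smallest adjusted p of 0.722, with 0 of 46 under an unadjusted p of 0.05 (5.03% of all genes, 1.83% lower and 3.2% higher). In that average no gene of the 46 was wholly below (0.836% of all genes) or wholly above (2.02%).

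The combination was also set against each steroid alone, which share its arrays. Against progesterone, combination means were lower in 32 of 46 genes (43.3% of all genes), the median was −0.14 against 0.03, and in limma 0 passed (0.0% of all genes) with a smallest adjusted p of 0.255, while 16 had an unadjusted p under 0.05 with a lower mean (4.5% of all genes). DLGAP5 differed by −1.26 ± 0.26 (SE), NUF2 by −1.01 ± 0.25 and BUB1 by −0.41 ± 0.10. The combination lay wholly below progesterone in 22 (12.6% of all genes) and wholly above in 4 (28.1%), CDC25B, CDC25C, CDCA8 and KIF2C. Leaving out progesterone array 1 again brought 20 genes past the threshold, the same 20, among 1090 genes of all. Against RU-486, combination means were lower in 25 of 46 (38.9% of all genes), and in limma 0 passed (0.0% of all genes), with 4 lower (1.56% of all genes) and 2 higher (3.18%) at an unadjusted p under 0.05 (4.75% in either direction) and a smallest adjusted p of 0.769. The combination lay wholly below RU-486 in 23 of 46 genes (17.1% of all genes), among them CCNA2, CDK1, BUB1, BUB1B and NUSAP1 of the narrow-ranging ones, and wholly above in 13 (33.3% of all genes). NUF2 differed by −0.69 ± 0.25, DLGAP5 by −0.67 ± 0.26, CDCA8 by 0.20 ± 0.08 and CDC25C by 0.19 ± 0.08.

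The interaction asks whether the effect of RU-486 differed in the presence of progesterone. Over the 46 genes it was negative in 26 (47.6% of all genes), and the median was −0.04, against 0.01 over all genes. Without progesterone replicate 2 that median was 0.0654, so it has no settled sign. In limma 0 of 46 passed (0.0% of all genes), 0 had an unadjusted p under 0.05 (5.28% of all genes), and the smallest adjusted p was 0.828. DLGAP5 was lowest at −0.87 ± 0.37 (SE), followed by NUF2 at −0.75 ± 0.36, and CDCA8 was at 0.23 ± 0.11. A test of any difference among the 4 groups passed 0 of 46 genes (0.0% of all genes), with an unadjusted p under 0.05 in 8 (7.63% of all genes) and a smallest adjusted p of 0.639.

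Other genes of the same pathway were read from 3 lists. Of 50 further G2/M genes, 16 ranged over more than 0.75, and against vehicle the combination mean was lower in 39 (32.5% of all genes), with a median of −0.13, and 15 had an unadjusted p under 0.05, all with a lower mean (6.29% of all genes). NCAPG, a condensin subunit, differed by −0.72 ± 0.20 (SE), CEP55, which recruits the abscission machinery, by −0.76 ± 0.19, the kinetochore gene SKA3 by −0.60 ± 0.17 and CENPI by −0.53 ± 0.14. SGO1, the guardian of centromeric cohesion, differed by −0.46 ± 0.13 in the RU-486 average. Among the G1/S and replication genes, 2 of 41 ranged over more than 0.75 (CCNE2 and CLSPN), and the combination against vehicle had a median of 0.03. POLA1, a subunit of the replicative primase-polymerase, stood at −0.37 ± 0.13, CLSPN, a checkpoint adaptor, at −0.60 ± 0.26, CCNE2 at −0.63 ± 0.27 and the phosphatase CDC25A at 0.20 ± 0.09. In the RU-486 average, UNG stood at 0.13 ± 0.06 and E2F8 at −0.13 ± 0.06. In limma no gene of these lists passed in any comparison (0.0326% of all genes in the RU-486 average, 0.0% in the others).

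Of 31 cell cycle regulators, 6 ranged over more than 0.75, and the combination against vehicle had a median of 0.03 over the list. In limma, 6 had an unadjusted p under 0.05, all with a lower mean (6.29% of all genes). LIN54, the MuvB subunit that contacts the CHR, differed by −0.58 ± 0.17 (SE), RB1 by −0.77 ± 0.24, FBXO5 (EMI1, an inhibitor of the anaphase-promoting complex) by −0.62 ± 0.19 and CDK6 by −0.81 ± 0.26, all at an adjusted p of 0.374 in limma. E2F5 stood at 0.28 ± 0.09 in the RU-486 average. Among activators of the mitotic genes, FOXM1 stood at 0.13 ± 0.09 (adjusted p = 0.472 in limma) and MYBL2 (B-MYB) at 0.08 ± 0.09. Further MuvB subunits shared no direction. LIN9 read 7.96 and 8.24 in combination and 8.61 and 8.95 in vehicle cells. LIN37 read 10.38 and 10.29 in combination and 10.15 and 10.11 in vehicle cells. LIN52 read 8.77 and 8.74 in combination and 8.77 and 8.73 in vehicle cells. Whether any of these acts on the mitotic genes here was not tested. The CDK inhibitors CDKN1A (p21) and CDKN1B (p27) stood at −0.01 ± 0.08 and −0.11 ± 0.10.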

How the data were processed

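RNA of 8 U373 samples, 2 in each of 4 groups, was hybridised to 1 array each. The deposited values are on a log2 scale, 1 per probe set, and the submitters' processing notes name RMA, oligo and limma without saying which step each did. Their versions and the array batches are not given in the sources used here. Of 33297 probe sets, 19460 had 1 symbol in the platform annotation, 1754 several and 12083 none listed. The probe set with the highest mean was kept per gene, which left 18417 genes, and none of the 46 genes had more than 1. No filter on low values was applied, so every one of the 46 entered the fit.

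Group means were fitted on all genes and 8 arrays with limma 3.58.1 (lmFit and eBayes, R 4.3.3), with Benjamini-Hochberg adjustment over all genes and a threshold of 0.05. The 8 contrasts share arrays, so their values are given side by side. The steroids differ in dose and were not set against each other. The procedure was tested on simulated data. With 2 arrays per group, the number of arrays limits the precision.

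Genes named with values on every array are the 3 of each role with the largest range, to which DLGAP5 and CDCA8 were added after their values were seen. In each comparison those named are among the 10 with the smallest p or make up a count, and KIF18A, the widest-ranging gene, was added likewise. From each further list the 4 with the smallest p in the RU-486 average and in combination against vehicle, with FOXM1, MYBL2, CDKN1A and CDKN1B, are named. LIN9, LIN37, LIN52, KNL1, SPC24, SPC25, SKA1 and ZWINT were added after their values were seen. The genes and lists were chosen with earlier results of these data known. Alternatives were a replicate block, quantile normalization, median centring, array weights, the mean of probe sets, all one-symbol probe sets, a filter at a mean of 6, trend with robust eBayes, only the arrays compared, and each array left out. Leaving out both progesterone arrays was added after seeing the data. Promoter letters came from RefSeq (GRCh38.p14).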

Additional observations from a re-analysis of the deposited data

How the results depend on the processing

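Of the counts of called genes, the medians over the 46 genes and the share of promoters with both motifs, recomputed under each alternative, 286 kept to within 1.5 times the count or to within 0.084 log2 of the median (the SD of that median between replicates), or, for the promoters, within the binomial interval, and 5 did not; of the values for single named genes, 331 stayed and 9 passed the threshold under an alternative, and none turned its direction. The single genes counted were those with the smallest p in the RU-486 average and in combination against vehicle. Values named for the other comparisons were not counted. Among these, CDK1 in progesterone against vehicle stood at −0.50 without progesterone replicate 2. It turned positive without replicate 1, since progesterone array 2 read 10.38 and the vehicle mean was 10.33. All of the changes counted came from leaving out a progesterone array. Leaving out each array in turn gave 0 to 20 genes called in the RU-486 average and in combination against progesterone, 0 to 1 in progesterone against vehicle and 0 in the other comparisons. Without progesterone replicate 1 it was 20 in each of the first 2, and the 9 named genes that passed in the RU-486 average were DLGAP5 (−1.04), BUB1B (−0.31), ANLN (−0.83), NUF2 (−0.81), KIF23 (−0.53), KIF11 (−0.91), TOP2A (−0.90), CKAP2 (−1.14) and MKI67 (−0.74). The median over the 46 genes ranged from −0.18 to −0.11 in the RU-486 average, −0.18 to −0.14 in combination against vehicle, −0.17 to −0.12 in RU-486 against vehicle, −0.23 to −0.07 in combination against progesterone and −0.06 to −0.03 in combination against RU-486. In progesterone against vehicle the median of the 46 genes ranged from −0.157 (without progesterone replicate 2) to 0.0713 (without progesterone replicate 1). It ranged from −0.09 to 0.03 in the progesterone average and from −0.12 to 0.0654 (without progesterone replicate 2) in the interaction, so these 3 medians have no settled sign. The replicate block left 0 of the 46 genes called in each comparison. The replicate 2 minus replicate 1 differences correlated between groups at 0.197 to 0.511 across all genes and at 0.407 to 0.922 across the 46, but with only replicate numbers 1 and 2 this does not show that the numbers pair the samples. Over all genes, the RU-486 average called 6 genes, against 43 with trend and robust eBayes, 998 without progesterone replicate 1 and 0 without either vehicle replicate. The dimmest gene, CENPE, is the one most limited by signal over background.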
